A study of Mus musculus with 33 samples.

Results

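The ureteric bud is the epithelial tube that grows out of the Wolffian duct into the metanephric mesenchyme and branches to become the collecting ducts and, at its base, the ureter. Its tips respond to GDNF from the mesenchyme through the receptor RET and carry the branching cells, while the trunk behind them matures into collecting duct. Six2 is a transcription factor of the mesenchymal nephron progenitors that surround the tips and is not a gene of the bud itself. The 32 genes described here were picked by symbol, as genes of bud or ureter epithelium, from the 35349 gene symbols of the deposited count table. They and their lists were chosen with earlier results of these data known. Shares of members set beside shares of all genes are therefore descriptive and are no test of the lists. The members comprise 13 general epithelial genes, 8 tip genes, 6 trunk genes and 5 urothelial genes. The lists were meant to set the amount of bud epithelium beside its tip or trunk identity. Whether a gene of the tip or trunk list was confined to that part of the bud at E11.5 was not tested. A higher level of a trunk gene therefore cannot by itself tell more bud epithelium from a more trunk-like bud.

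RNA of whole embryonic mouse kidneys was sequenced from Six2 knockout (KO), heterozygous (Het) and wild-type (WT) specimens. At E11.5, when the bud has just entered the mesenchyme, there were 5 KO, 5 Het and 6 WT specimens, called embryos here, and at E15.5, in the branching kidney, 4 Het and 4 WT specimens. The labels do not state the targeted allele, the strain or whether a specimen was 1 animal or a pool, so the p-values measure the spread between these specimens. Some E15.5 Het libraries have titles that begin with GCE, which is not explained and which no E11.5 title carries. Whether the specimens of both ages carried the same allele is therefore not known. Levels are given as CPM, read counts scaled to a library total of 1e+06 after TMM normalization, and a gene is called when its adjusted p in edgeR's quasi-likelihood test (Benjamini-Hochberg over all genes tested) is below 0.05. Bulk RNA cannot tell fewer bud cells from less RNA per bud cell.

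The 33 libraries held 10.8 to 42.1 M counts each and were summed to 24 specimens. Six2 followed the labels in every specimen, at 0.278 to 0.644 CPM in KO, 9.96 to 16.5 in Het and 19.6 to 31.7 in WT embryos at E11.5, and at 5.84 to 6.63 in Het and 11.2 to 13.0 in WT kidneys at E15.5. The labels put the E11.5 libraries in 2 batches without saying what a batch is, and the share of counts on ribosomal RNA genes was 0.868 to 11.6% in KO, 3.49 to 17.2% in Het and 18.8 to 24.8% in WT libraries of the first batch, against 0.202 to 0.442% in the second. Het embryo 1, with a library in each, had 17.2% in the first and 0.335% in the second. Bud epithelium was present in every group by its markers: Ret, the receptor gene of the bud, averaged 87.0, 78.8 and 65.1 CPM in KO, Het and WT embryos at E11.5. Cartilage and sympathetic chain genes were also present at E11.5, with Col2a1, the main collagen of cartilage, at mean levels of 452, 462 and 491 CPM in KO, Het and WT embryos.

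WT embryo 6 stood apart from all other E11.5 specimens in these genes. It had the highest level of all 16 embryos for 17 of the 32 members, namely for 10 of 13 general epithelial, 2 of 8 tip, 1 of 6 trunk and 4 of 5 urothelial genes. Trp63, the transcription factor of stratified and urothelial basal cells, was at 16.2 CPM in this embryo and at 0 to 0.695 CPM in the other 5 WT embryos. The chemokine gene Cxcl14 was at 67.4 CPM, against 2.41 to 5.31 CPM in the others. The simple epithelial keratin gene Krt7 was at 40.3 CPM in this embryo and 3.78 to 13.8 CPM in the others, and Epcam, the adhesion molecule of most epithelia, was at 79.7 CPM, against 27.3 to 46.0 CPM.

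Genes of stratified epithelium that are no members were high in the same embryo. The basal keratin gene Krt5 was at 33.8 CPM and Krt14 at 20.1 CPM, and the foregut and skin factor gene Sox2 was at 15.1 CPM. The summed level of 5 gut and skin epithelial markers was 36.4 CPM in this embryo, 1.86 to 5.53 CPM in the other WT, 2.74 to 5.05 CPM in KO and 1.54 to 2.93 CPM in Het embryos, with the intestinal factor gene Cdx2 at 0 in all of them. The tip gene Adamts18, a secreted protease, was at its lowest of all 16 embryos there, at 23.0 CPM. Comparisons that involve E11.5 WT embryos are therefore given with and without WT embryo 6 where that changes a call.

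**Figure D1:**
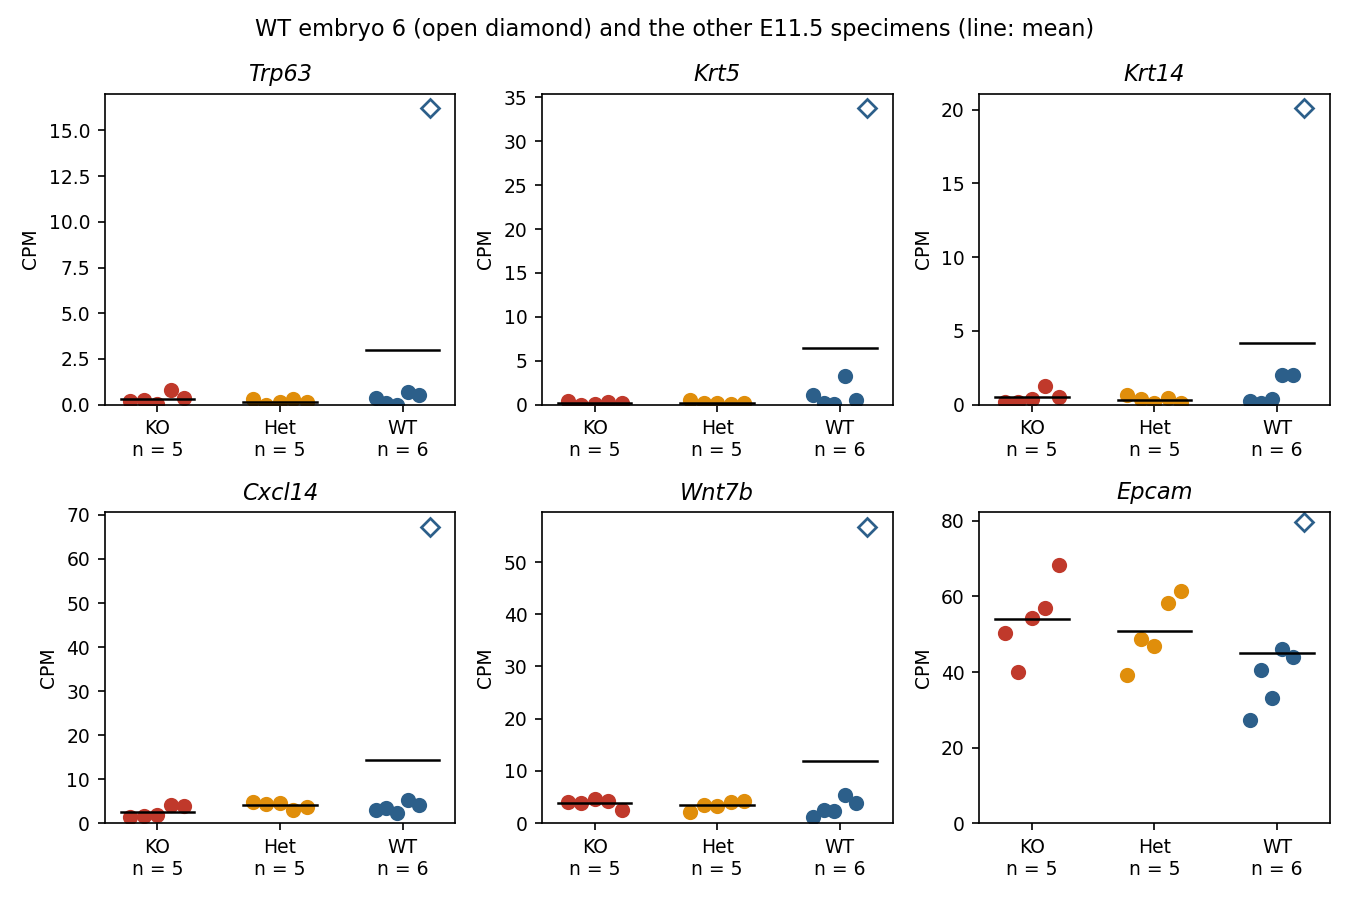
CPM (linear axis from 0) of Trp63, Krt5, Krt14, Cxcl14, Wnt7b and Epcam in each E11.5 specimen by genotype; points are specimens, lines are group means and the open diamond is WT embryo 6. The diamond lies above every other specimen in all 6 panels, for example at 16.2 CPM for Trp63, where no other WT embryo exceeded 0.695 CPM.

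The level of the members differed widely within the normal kidney. Per kilobase of the gene's length in the deposited table, the highest members in WT embryos at E11.5 were the keratin gene Krt18 with 25.2 ± 11.6 CPM per kb (SD, n = 6), Epcam with 22 ± 8.96, the secreted protease inhibitor gene Wfdc2 with 17.8 ± 4.79 and the calcium-binding protein gene Calb1 with 17.0 ± 2.26. These neighbours did not differ beyond their spread. At the low end the uroplakin genes Upk2 and Upk3a, whose products form the plaques of mature urothelium, had at most 4 counts and 0 counts in any E11.5 specimen. Counts of Krt8 and Krt18, the keratin pair of simple epithelia, are uncertain to the extent that reads were shared with their many pseudogene copies.

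The comparison of KO with WT embryos at E11.5 asked what the loss of Six2 in the neighbouring mesenchyme was accompanied by in the bud. Krt23 and Slco4c1 of the tip list were lower in KO embryos, while Tfcp2l1, Calb1 and Gata3 of the trunk list were higher. Of the 29 members with enough counts to be tested, 8 were called, 6 higher and 2 lower, against 7.09% of all 16141 genes (3.06% higher and 4.03% lower). By list, 2 of 13 general epithelial genes were higher, 1 of 8 tip genes was higher and 2 were lower, 3 of 6 trunk genes were higher, and neither of the 2 tested urothelial genes was called. The median log2 fold changes were 0.20 for the epithelial, -0.15 for the tip and 0.70 for the trunk genes, beside -0.00 for all genes.

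Krt23 encodes an acidic keratin and, in the mouse, is a gene of the bud tip. It was at 0.347, 0.185, 0.119, 0.505 and 0.346 CPM in the 5 KO embryos, at 4.78, 3.58, 3.34, 4.43 and 3.77 CPM in the 5 Het embryos, and ran from 1.59 to 5.96 CPM with a median of 3.2 in the 6 WT embryos. The gene lies at chr11:99477974-99493137 on the minus strand (mm10). Every KO embryo lay below every Het and WT embryo, and no KO embryo had more than 9 counts. The log2 fold change was -3.38 ± 0.31 (SE, adjusted p = 2.75e-06), or 0.0962 times the WT level. With the prefix of the sample titles as a block in place of batch it was smaller, at -2.34 ± 0.36 (adjusted p = 0.00688). KO embryos 2, 3 and 5 shared a prefix with no Het or WT embryo. The KO difference in that fit, which had no batch term, therefore rested on KO embryos 1 and 4. The Krt23 call held in each of the 16 fits that left out 1 embryo. Each batch alone, in fits without a sex term, gave a call, at -3.47 for batch 1 (adjusted p = 0.00122) and, for batch 2, -3.31 (adjusted p = 0.00298).

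Slco4c1, which encodes an organic anion transporter and is enriched in the tips, followed the same order. Its levels were 0.248, 0.371, 0.358, 0 and 0.115 CPM in KO embryos, 1.3, 2.70, 3.08, 1.49 and 0.978 CPM in Het embryos, and 0.765 to 1.62 CPM with a median of 1.00 in WT embryos. The KO range lay wholly below the other groups', with 0 to 6 counts per embryo, and the single 0 allows a level of up to 0.168 CPM (3 counts). The log2 fold change was -2.46 ± 0.43 (adjusted p = 0.00178). Batch 1 alone gave -1.87, not called (adjusted p = 0.0708), whereas batch 2 alone gave -4.00 and a call (adjusted p = 0.0389).

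The 250 bases before the RefSeq transcription start are shown for these 2 tip genes, the tip members called lower, and for Tfcp2l1, the trunk gene with the largest called rise. The Krt23 window overlaps the end of the gene span given above, which is from the GENCODE annotation. These 3 genes were chosen by their values, and the other tip and trunk members did not all follow them. The sequences are from RefSeq on GRCm38.p6, each on its gene's strand, at chr11:99493121-99493370 (minus), chr1:96872172-96872421 (minus) and chr1:118627695-118627944 (plus). Capitals mark matches, on either strand, to the CP2-type pattern (CCNG, any 6 bases, CCNG), the kind of site bound by the family to which TFCP2L1 belongs, in Slco4c1 including a pair of overlapping matches.
Krt23: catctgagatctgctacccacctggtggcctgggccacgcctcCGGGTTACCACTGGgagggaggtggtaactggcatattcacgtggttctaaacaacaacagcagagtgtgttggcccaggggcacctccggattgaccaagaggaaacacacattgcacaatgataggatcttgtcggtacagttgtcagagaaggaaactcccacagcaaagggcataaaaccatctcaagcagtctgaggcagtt
Slco4c1: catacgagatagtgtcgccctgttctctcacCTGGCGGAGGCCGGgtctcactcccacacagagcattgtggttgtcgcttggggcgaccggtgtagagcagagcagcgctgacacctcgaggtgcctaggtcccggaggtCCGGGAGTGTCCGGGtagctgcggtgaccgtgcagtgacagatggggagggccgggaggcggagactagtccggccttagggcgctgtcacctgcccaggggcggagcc
Tfcp2l1: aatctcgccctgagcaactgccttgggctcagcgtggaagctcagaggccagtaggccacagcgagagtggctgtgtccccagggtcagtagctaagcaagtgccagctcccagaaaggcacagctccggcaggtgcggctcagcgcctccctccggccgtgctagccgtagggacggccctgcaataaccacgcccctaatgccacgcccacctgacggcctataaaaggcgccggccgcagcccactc

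Promoter entries existed for 21 of the 32 members, 23 promoters in all. The CP2-type pattern was in 13 of these 23, and in 24.9% of the 32851 mouse promoters of the same length. The shorter pattern AGGAAG, the core recognised by the ETS factors ETV4 and ETV5 that act downstream of RET, was in 5 of the 23 member promoters (genes Krt7, Krt8, Rab25 and Wfdc2) and in 29.5% of all. A longer ETS pattern, CCGGAAGT, was in the promoter of Spint1 and in 2.88% of all, and the grainyhead pattern AACCNGTT was in that of Rab25 and in 1.79% of all. Each pattern was searched on both strands. Neither ETS pattern matched in the windows of Krt23, Slco4c1 or Tfcp2l1.

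The other tip members did not share the low level of Krt23 and Slco4c1. Sox8, a tip transcription factor gene acting downstream of RET signalling in the mouse, was at 6.79, 8.71, 7.09, 7.80 and 9.62 CPM in KO embryos and at 6.60 to 10.4 CPM with a median of 9.09 in WT embryos, with overlapping ranges and a log2 fold change of -0.09 ± 0.14 (adjusted p = 0.779). Its partner Sox9 stood at 0.31 ± 0.14 (adjusted p = 0.221), the transcription factor gene Myb at 0.01 ± 0.14 (0.974) and Adamts18 at -0.20 ± 0.23 (0.684). Sox9 is also a cartilage gene, and the cartilage list had 0 of 2 tested genes called. Lama1, a basement membrane laminin chain, was higher: it was at 153, 129, 149, 153 and 154 CPM in KO embryos and at 97.6 to 154 CPM with a median of 117 in WT embryos, where WT embryos 3 and 6 overlapped the KO embryos. Its log2 fold change was 0.32 ± 0.08 (adjusted p = 0.0261), and the call was lost in both batches taken alone and in 5 of the 16 fits without 1 embryo.

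The size of the Cxcl14 fold change over WT embryos depended on a single embryo. Cxcl14 was at 1.34, 1.58, 1.79, 4.15 and 3.97 CPM in KO embryos, 4.76, 4.4, 4.48, 2.98 and 3.59 CPM in Het embryos and had a median of 3.75 CPM in WT embryos. Its log2 fold change was -2.02 ± 0.75 with WT embryo 6 and -0.41 ± 0.20 without it, and neither was called (adjusted p = 0.127 and 0.298). Over Het embryos it was -0.79 and not called (adjusted p = 0.673). Batch 1 alone gave a call over Het embryos (-1.42 ± 0.22, adjusted p = 0.00421), where genotype cannot be told apart from sex.

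**Figure D2:**
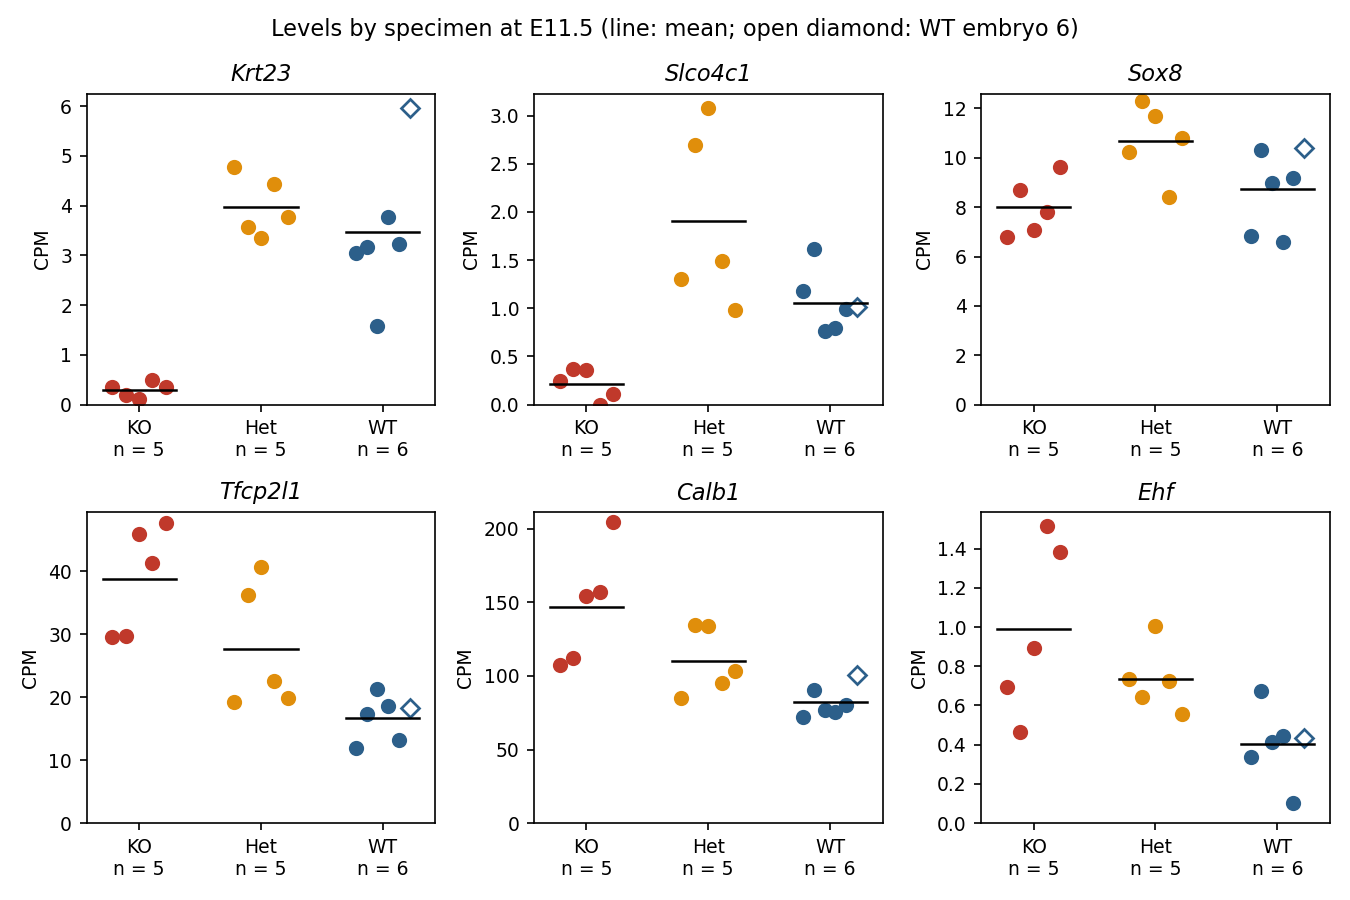
CPM (linear axis from 0) of the tip genes Krt23, Slco4c1 and Sox8, the trunk genes Tfcp2l1 and Calb1, and the epithelial gene Ehf in each E11.5 specimen; points are specimens, lines are group means and the open diamond is WT embryo 6. The KO points of Krt23 (0.119 to 0.505 CPM) and Slco4c1 (0 to 0.371 CPM) lie below all others, those of Tfcp2l1 and Calb1 lie above all WT points, and those of Sox8 overlap the WT points.

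Among the trunk genes, Tfcp2l1 encodes a grainyhead-like transcription factor of the maturing collecting duct. It was at 29.5, 29.7, 45.9, 41.3 and 47.6 CPM in KO embryos, 19.2, 36.3, 40.7, 22.5 and 19.9 CPM in Het embryos and 11.9 to 21.2 CPM with a median of 17.8 in WT embryos. The KO range lay above the WT range and overlapped the Het range, with a log2 fold change over WT of 1.27 ± 0.19 (adjusted p = 0.000443), or 2.41-fold. Calb1, the vitamin D dependent calcium-binding protein of the duct, was at 108, 112, 154, 157 and 205 CPM in KO, 84.8, 135, 134, 95.3 and 103 CPM in Het and 72.0 to 101 CPM with a median of 78.5 in WT embryos. Its KO range also lay above the WT range, at a log2 fold change of 0.88 ± 0.14 (adjusted p = 0.000858). Without libraries above 5% ribosomal counts it stood at 0.89 ± 0.21 and was not called (adjusted p = 0.062). These 2 genes and Krt23 and Slco4c1 were the 4 members whose KO and WT ranges did not overlap, beside 3.17% of all genes (0.936% above and 2.23% below).

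Batch 2 alone gave calls for Tfcp2l1 (1.45, adjusted p = 0.00182) and for Calb1 (1.11, adjusted p = 0.00422). Batch 1 alone gave none, with Tfcp2l1 at 1.08 (adjusted p = 0.0563) and Calb1 at 0.67 (adjusted p = 0.0638). The fit with the title prefix as a block, a prefix whose meaning the labels do not give, had no batch term and rested on KO embryos 1 and 4. In it Tfcp2l1 was at 0.99 (adjusted p = 0.0665) and no longer called, nor were Gata3, Lama1, Ehf and Elf3, while Krt8, Krt18 and Spint1 were. Gata3, a zinc finger factor that keeps the duct epithelium in its lineage, was at 30.0, 25.9, 31.2, 21.9 and 24.1 CPM in KO embryos and at 14.7 to 29.6 CPM with a median of 15.6 in WT embryos. Its log2 fold change was 0.52 ± 0.13 (adjusted p = 0.022), and with the title prefix as a block it was 0.11 (adjusted p = 0.746). Sympathetic neurons also express Gata3: the summed level of 4 sympathetic chain genes was 54.3 to 97.2 CPM in KO, 29.4 to 53.1 in Het and 14.2 to 85.7 in WT embryos, none of the 4 was called, and their part in the Gata3 value was not tested.

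Wfdc2 did not follow the other abundant trunk genes. It was at 12.1, 10.6, 14.1, 16.7 and 23.3 CPM in KO, 21.6, 25.1, 23.7, 18.9 and 21.7 CPM in Het and 15.5 to 29.6 CPM with a median of 19.6 in WT embryos, and the ranges of KO and WT embryos overlapped. Its log2 fold change over WT was -0.34 ± 0.15 (adjusted p = 0.221). The homeobox gene Emx1, at 1.15 ± 0.56 (adjusted p = 0.269), and the ETS factor gene Elf5, at 0.41 ± 0.38 (adjusted p = 0.608), were at or below about 1 CPM on average and were not called.

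General epithelial genes were meant as a measure of how much bud epithelium each kidney held. The part of epithelia outside the bud in their levels was not tested. In KO against WT embryos the median log2 fold change was 0.59 for the 4 tested mesothelium genes, all positive and none called. It was 0.57 for the 6 early nephron genes (4 positive) and -1.42 for the 2 tested gut and skin epithelial genes. Of the 13 general epithelial genes, only the epithelial ETS factor genes Ehf and Elf3 were called with all embryos. Ehf was at 0.694, 0.463, 0.894, 1.52 and 1.38 CPM in KO embryos and at 0.104 to 0.675 CPM with a median of 0.422 in WT embryos (log2 fold change 1.46 ± 0.34, adjusted p = 0.0149). Elf3 was at 2.48, 2.41, 2.80, 3.99 and 4.72 CPM in KO embryos and at 1.69 to 2.79 CPM with a median of 2.20 in WT embryos (0.67 ± 0.19, adjusted p = 0.0446). The KO and WT ranges of both overlapped, neither was called in either batch alone, and Elf3 kept its call in 6 of the 16 fits without 1 embryo. Epcam was at 50.4, 40.1, 54.2, 57.0 and 68.4 CPM in KO, 39.1, 48.9, 46.8, 58.3 and 61.5 CPM in Het and 27.3 to 79.7 CPM with a median of 42.2 in WT embryos, and was not called (0.37 ± 0.16, adjusted p = 0.205).

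Without WT embryo 6 the epithelial picture differed. Then 7 of the 13 epithelial genes were higher in KO embryos, with a median log2 fold change of 0.55, and 12 of the 13 values were positive. Besides Ehf and Elf3 these were the keratin gene Krt8 (0.77 ± 0.16), Epcam (0.55 ± 0.11), the membrane protease gene St14 (0.55 ± 0.14), the gene of its inhibitor Spint1 (0.72 ± 0.15) and the epithelial splicing factor gene Esrp1 (0.46 ± 0.12), with adjusted p-values of at most 0.0436. In all, 13 of 28 tested members were called, 11 higher and 2 lower, against 5.86% of all genes (2.68% higher and 3.18% lower). The tip and trunk calls with all embryos were also made without WT embryo 6: Krt23 stood at -3.18 ± 0.28, Slco4c1 at -2.36 ± 0.44 (adjusted p = 0.00354), Tfcp2l1 at 1.34 ± 0.20 (adjusted p = 0.000449), and the trunk list had 3 of 5 tested genes higher.

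The other 6 epithelial genes were not called with or without that embryo. Krt18 stood at 0.51 ± 0.17 with all embryos (adjusted p = 0.081) and at 0.58 ± 0.17 without WT embryo 6 (adjusted p = 0.0585), and Grhl2, a grainyhead factor gene of epithelia, at 0.13 ± 0.26 and 0.51 ± 0.15 (adjusted p = 0.842 and 0.0514). The protease inhibitor gene Spint2 stood at 0.20 ± 0.16 and 0.37 ± 0.13, and the small GTPase gene Rab25 at -0.12 ± 0.21 and -0.04 ± 0.22. The signs of the keratin genes Krt7 (-0.41 and 0.10) and Krt19 (-0.27 and 0.21) depended on that embryo.

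The urothelial members gave no call in KO against WT embryos. The uroplakin gene Upk1a was at 0.786 to 1.85 CPM in KO embryos and 0.991 to 8.56 CPM in WT embryos, with a log2 fold change of -0.59 ± 0.52 (adjusted p = 0.59) and of 0.26 ± 0.29 without WT embryo 6. Upk1b was at 1.02 to 2.25 CPM in KO embryos and 0.202 to 8.90 CPM in WT embryos (-0.57 ± 0.54, adjusted p = 0.623). Upk2, Upk3a and Trp63 reached the minimum count in too few E11.5 specimens to be tested, with Trp63 at 0.0596 to 0.786 CPM in KO embryos.

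**Figure D3:**
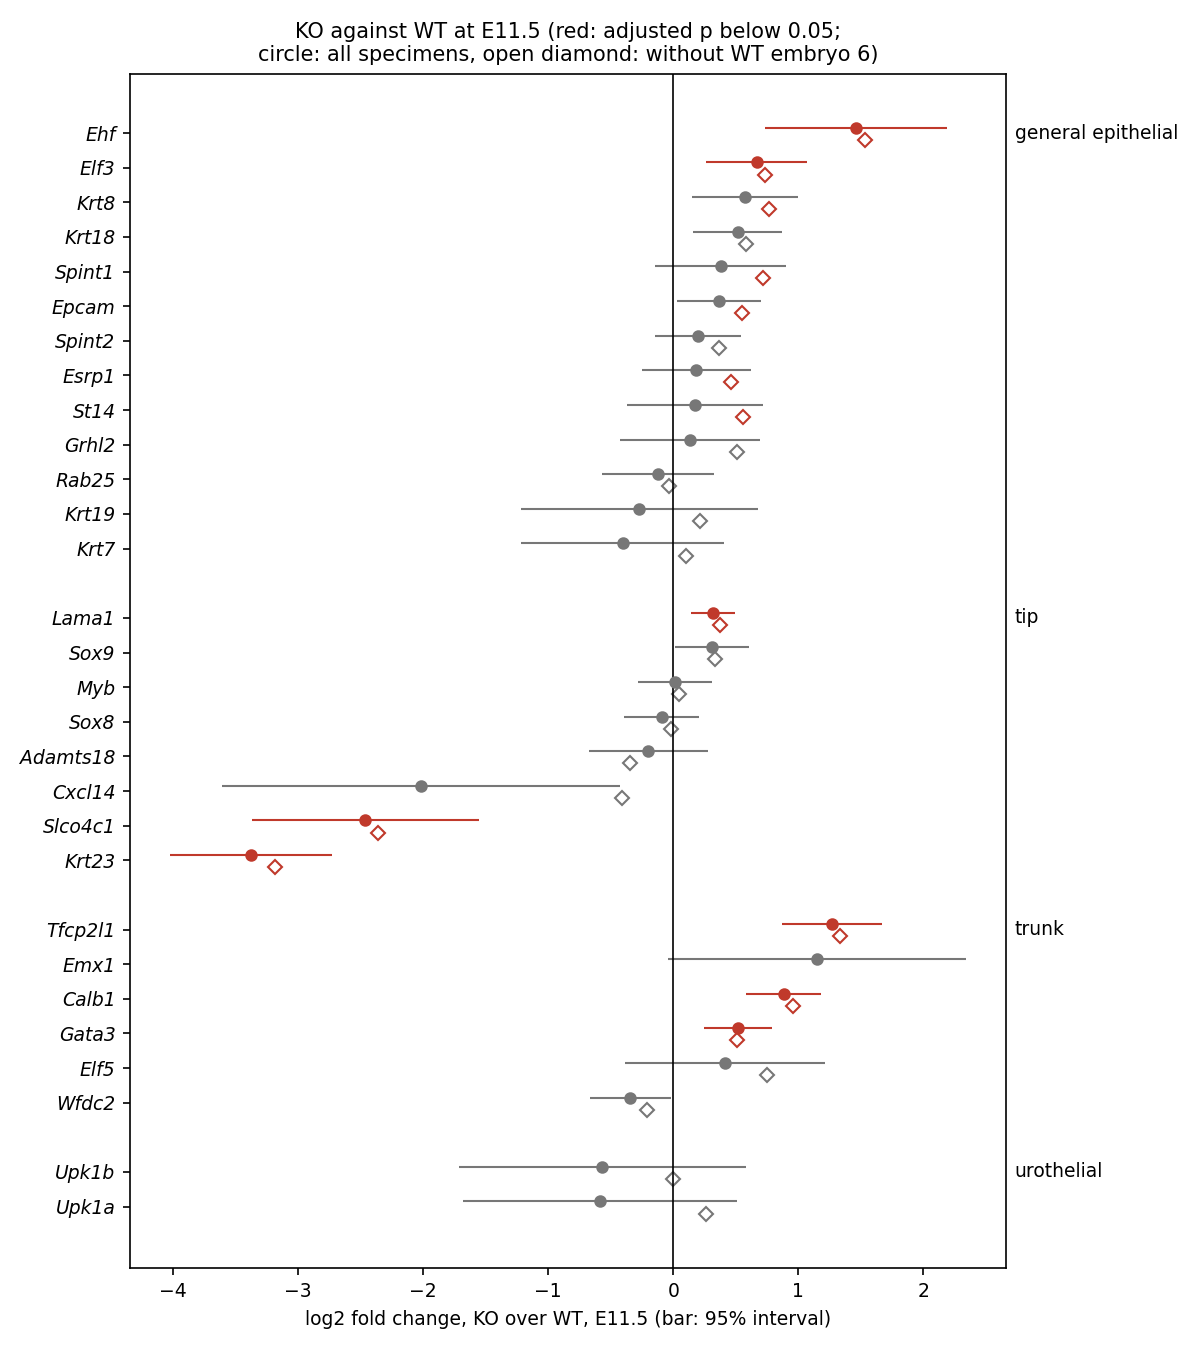
Log2 fold change of KO over WT at E11.5 for the 29 tested members, grouped by list; circles with 95% intervals are from all embryos, open diamonds leave out WT embryo 6, and red marks an adjusted p below 0.05. Krt23 (-3.38) and Slco4c1 (-2.46) lie far to the left with and without that embryo, while 5 epithelial genes are red only as diamonds.

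List means were compared with the epithelial mean. The mean log2 CPM of the 13 epithelial genes, relative to the WT mean, ran from -0.27 to 0.58 in KO, -0.13 to 0.35 in Het and -0.58 to 1.12 in WT embryos, where the 5 WT embryos other than embryo 6 ended at 0.24. That of the 8 tip genes ran from -0.98 to -0.75 in KO, 0.06 to 0.48 in Het and -0.22 to 0.51 in WT embryos, so that the KO embryos lay apart. That of the 6 trunk genes ran from -0.15 to 0.98 in KO, -0.18 to 0.57 in Het and -0.39 to 0.55 in WT embryos, which overlap. The separation of the tip list rested on few genes. With Krt23 and Slco4c1 taken out, a trimming made after their values were seen and so not tested, the tip mean ran from -0.39 to -0.01 in KO, -0.08 to 0.37 in Het and -0.32 to 0.53 in WT embryos, which overlap. With Cxcl14 taken out as well it ran from -0.06 to 0.10 in KO, 0.09 to 0.52 in Het and -0.20 to 0.20 in WT embryos.

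**Figure D4:**
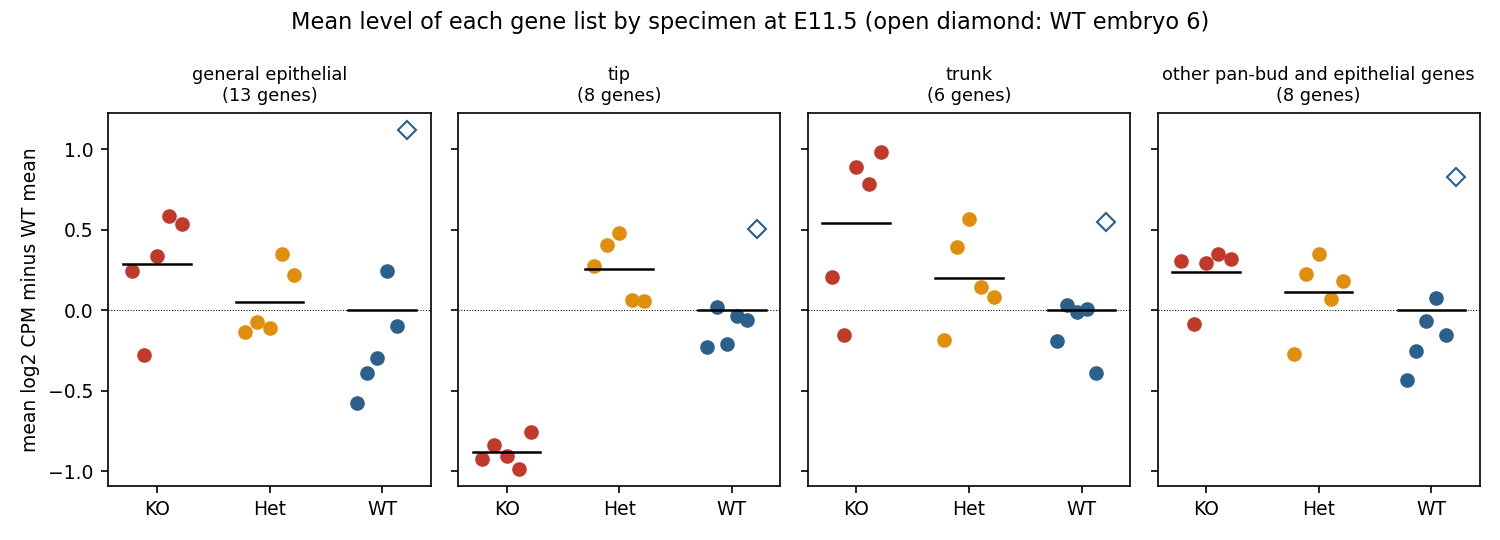
Mean log2 CPM of the general epithelial, tip and trunk members and of 8 other pan-bud genes in each E11.5 specimen, minus the WT mean (vertical axis, log2); points are specimens, lines are group means and the open diamond is WT embryo 6. The KO points of the tip list (-0.98 to -0.75) lie below all others, while the KO points of the other 3 lists overlap the WT points.

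Levels were also expressed as a percent of the Epcam level of the same specimen. Krt23 was 0.552 ± 0.250% of the Epcam level in KO (SD, n = 5), 8.08 ± 2.38% in Het (n = 5) and 7.80 ± 2.03% in WT embryos (n = 6), with KO embryos at 0.220 to 0.886% and WT embryos at 4.80 to 11.1%. Slco4c1 was 0.449 ± 0.371%, 3.91 ± 2.08% and 2.65 ± 1.24% of Epcam in KO, Het and WT embryos. For both genes the KO embryos lay below all others. Wfdc2 was 24.1 to 34.0% of Epcam in KO embryos and 37.2 to 56.7% in WT embryos, again without overlap, though its CPM ranges overlapped. The same held for Cxcl14, at 2.65 to 7.28% in KO and 7.30 to 84.5% in WT embryos. Tfcp2l1 (58.4 to 84.6% in KO and 22.9 to 64.2% in WT embryos), Calb1 (213 to 299% and 126 to 264%) and Gata3 (35.2 to 64.7% and 18.5 to 89.7%) overlapped. The share of all genes that lie apart on this ratio was not taken. Epcam itself had a log2 fold change of 0.37 (not called), and a higher Epcam level alone lowers every ratio, so nothing is read from the lack of overlap.

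The mean of the member epithelial genes was also entered as a covariate, so that genotypes were compared at a matched epithelial level. Among members, 8 were then called: Krt23, Slco4c1, Cxcl14, Wfdc2 and Krt7 lower, and Tfcp2l1, Calb1 and Ehf higher, beside 1297 of all genes. Krt7 and Ehf are themselves in that mean, so nothing is read from their calls. With 8 other pan-bud genes as the covariate, 8 were called as well (1378 of all genes), among them the lower Krt23, Slco4c1, Cxcl14 and Wfdc2 and the higher Tfcp2l1 and Calb1. These fits leaned on WT embryo 6. In fits without it, chosen after seeing the data, Krt23 alone was called with the member genes as covariate (77 of all genes), and Krt23 and Slco4c1 with the pan-bud genes (289 of all genes). Slco4c1 stood at -2.60 ± 0.79 (adjusted p = 0.23) in the fit that did not call it, with a larger SE and a fold close to that of all embryos. Tfcp2l1 then stood at 0.67 ± 0.28 (adjusted p = 0.531) and 0.72 ± 0.18 (adjusted p = 0.0557), and Calb1 at 0.72 ± 0.25 (adjusted p = 0.334) and 0.64 ± 0.18 (adjusted p = 0.102).

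Bud genes outside the members gave the following values in KO against WT embryos. Of 8 other tip genes, 3 were lower: the RET-dependent factor genes Etv4 (-1.13 ± 0.17) and Etv5 (-1.0 ± 0.13) and the GDNF coreceptor gene Gfra1 (-0.85 ± 0.13). Ret was not called with all embryos (0.46, adjusted p = 0.0539) and was higher in KO embryos without WT embryo 6 (0.50, adjusted p = 0.0433), opposite to those 3. Wnt11, a ligand made at the tips, was not called (-0.08, adjusted p = 0.766). Of 5 tested other trunk genes, the ligand gene Wnt9b (0.72, adjusted p = 0.043) and the sodium channel subunit gene Scnn1g (0.94, adjusted p = 0.0226) were higher. The other 3 had negative log2 fold changes, down to -1.10, and were not called. The median of the 5 was -0.08 with all embryos and 0.39 without WT embryo 6. None of the 8 other pan-bud genes was called by edgeR, 2 had an unadjusted p below 0.05, and 3, Cldn4, Cldn7 and Prss8, were higher without WT embryo 6. Beside these, 5 of 6 nephron progenitor genes were lower, and 3 of 6 early nephron genes and 4 of 4 macrophage genes were higher. The 4 sympathetic chain genes had a median log2 fold change of 0.83 and none was called. The part of such shifts, and of cells outside the bud, in these values was not tested, for Ret, Etv4, Etv5 and Gfra1 as well.

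KO embryos set against Het embryos, which carry 1 intact Six2 copy, again had Krt23 and Slco4c1 far lower. Krt23 (-3.57 ± 0.32, adjusted p = 8.35e-06) and Slco4c1 (-3.18 ± 0.44, adjusted p = 0.000438) were the only members called of 29, against 3.69% of all genes (2.79% lower), and they were also the only members whose KO and Het ranges did not overlap (4.36% of all genes, 3.17% lower). This comparison shares its KO embryos with the KO against WT comparison. The trunk genes Gata3 (0.51, adjusted p = 0.0578), Calb1 (0.54, adjusted p = 0.063) and Tfcp2l1 (0.68, adjusted p = 0.0803) missed the threshold, and without WT embryo 6, which enters the fit through the shared spread and covariates, Calb1 was called as well (0.55 ± 0.14, adjusted p = 0.0368), beside 4.45% of all genes. DESeq2 called Gata3 besides Krt23 and Slco4c1, among 1015 genes called. With the title prefix as a block Krt23 stood at -2.24 ± 0.41 (adjusted p = 0.0194). The 13 epithelial log2 fold changes were all positive, from 0.07 to 0.71 with a median of 0.22, and none was called.

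In Het against WT embryos at E11.5 no member was called by edgeR or DESeq2, against 0.0681% of all genes, and 7 of 29 had an unadjusted p below 0.05, beside 8.25% of all genes. This comparison shares its Het and WT embryos with the others at E11.5. Krt23, with Het embryos at 3.34 to 4.78 CPM and WT embryos at 1.59 to 5.96 CPM, had a log2 fold change of 0.19 ± 0.22 (adjusted p = 0.839). Slco4c1 stood at 0.72 ± 0.31 (adjusted p = 0.575) and Tfcp2l1 at 0.59 ± 0.19 (adjusted p = 0.511). For Tfcp2l1, Het embryos 2 and 3 reached 36.3 and 40.7 CPM and the other 3 Het embryos 19.2 to 22.5 CPM. Het embryos 2 and 3 were the Het embryos without a library in batch 2, and the part of batch in this split was not tested. The tip list had 7 of 8 values above 0, with a median of 0.23, and the epithelial median was 0.07. The lack of a call does not show equal levels: the 95% interval of the Krt23 difference ran from -0.29 to 0.66.

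At E15.5, the log2 fold changes of Het over WT kidneys ran from -0.37 to 0.19 over the 32 members. The replicates were close for the more abundant members and less so for the urothelial ones. The mean log2 CPM of 4 urothelial genes, relative to the WT mean, ran from -0.80 to 0.61 in Het and -0.29 to 0.20 in WT kidneys. Over the 22 members with a mean of at least 1 CPM in all 5 groups, the median coefficient of variation was 6.49% in Het and 3.94% in WT kidneys at E15.5, against 23.1, 19.4 and 35.8% in KO, Het and WT embryos at E11.5. By edgeR 0 of 32 members were called, against 0.57% of all genes, and 9 had an unadjusted p below 0.05 (8.17% of all genes). The lack of a call does not show equal levels. DESeq2 called 2, Calb1 and Lama1, among 155 genes called. Calb1 was at 247, 271, 264 and 293 CPM in Het kidneys and 223, 247, 236 and 233 CPM in WT kidneys, with a log2 fold change of 0.18 ± 0.04 (adjusted p = 0.0516). The Het and WT ranges of Calb1, Ehf, Grhl2 and Sox8 did not overlap, all with Het above WT, beside 5.57% of all genes (3.59% with Het above). Of the 32 fold changes, 27 were positive, including 13 of 13 epithelial genes with a median of 0.06, and the median of all genes was 0.00.

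Among the Het specimens at E15.5 the lists were ordered differently. Het specimen 1 was the highest of the 4 for 5 of 5 urothelial and 5 of 6 trunk members and the lowest for 4 of 8 tip members. Het specimen 4 was the highest for 5 of 8 tip members and the lowest for 4 of 5 urothelial members. It was the only female of the 4, and WT specimen 2, with the lowest WT level of Upk3a, was the only female WT kidney. Upk3a was at 11.9, 9.30, 7.78 and 5.69 CPM in Het specimens 1 to 4 and at 5.95 to 8.61 CPM in WT kidneys, and Krt23 was at 16.7, 18.1, 18.2 and 20.8 CPM in the same Het specimens and 15.7 to 18.4 CPM in WT kidneys. The summed level of 6 tubule genes ran from 628 to 1109 CPM in Het and from 760 to 836 CPM in WT kidneys, and the parts of sex and of tubule content in these orders were not tested.

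WT kidneys at E15.5 set against WT embryos at E11.5 gave the normal course of the bud genes as a background. In whole kidneys 27 of 31 tested members changed, 24 higher and 3 lower, against 66.1% of all 17362 genes (34% higher and 32.1% lower). All 13 epithelial genes were higher, with a median log2 fold change of 1.95, and so were all 6 trunk genes, with a median of 2.68. The labels do not say whether both ages were sequenced together, so age cannot be told apart from any such difference, and 6 of 6 early nephron and 6 of 6 tubule genes were higher too. The share of nephron epithelium in these rises was not tested.

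Ehf changed most among the members expressed at both ages, with 66.6 to 67.5 CPM at E15.5 and 0.104 to 0.675 CPM at E11.5 (log2 fold change 7.35 ± 0.15). Among trunk genes Emx1 (5.16 ± 0.32), Tfcp2l1 (4.01 ± 0.17) and Elf5 (3.3 ± 0.25) led, and Tfcp2l1 reached 287 to 306 CPM. Calb1 (1.43 ± 0.14) and Gata3 (0.61 ± 0.12) were higher by less. Upk3a was at 0 counts in all 6 WT embryos and averaged 7.51 CPM at E15.5, at least 260-fold higher (against 3 counts over the E11.5 group).

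The tip genes split by age. Slco4c1 (4.73 ± 0.17), Krt23 (2.30 ± 0.16), Lama1 (1.73 ± 0.08) and Myb (1.1 ± 0.11) were higher at E15.5, while Adamts18 (-2.33 ± 0.23), Sox9 (-1.81 ± 0.16) and Sox8 (-0.53 ± 0.13) were lower. Krt23 was at 15.7 to 18.4 CPM at E15.5, and Slco4c1 at 25.9 to 29.6 CPM. As a percent of Epcam, Krt23 was 9.80 ± 0.399% at E15.5 (SD, n = 4) and 7.80 ± 2.03% at E11.5 (n = 6), with overlapping ranges, whereas Slco4c1 was 15.8 ± 0.304% and 2.65 ± 1.24%. Col2a1 averaged 59.1 CPM at E15.5, against 491 CPM at E11.5, beside the lower Sox9. Cxcl14 (-0.05 ± 0.60) and Trp63 were not called with all embryos, and without WT embryo 6 both were higher at E15.5 (1.33 ± 0.18, adjusted p = 6.64e-07, and 1.91 ± 0.41, adjusted p = 0.000327), beside 65.9% of all genes.

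**Figure D5:**
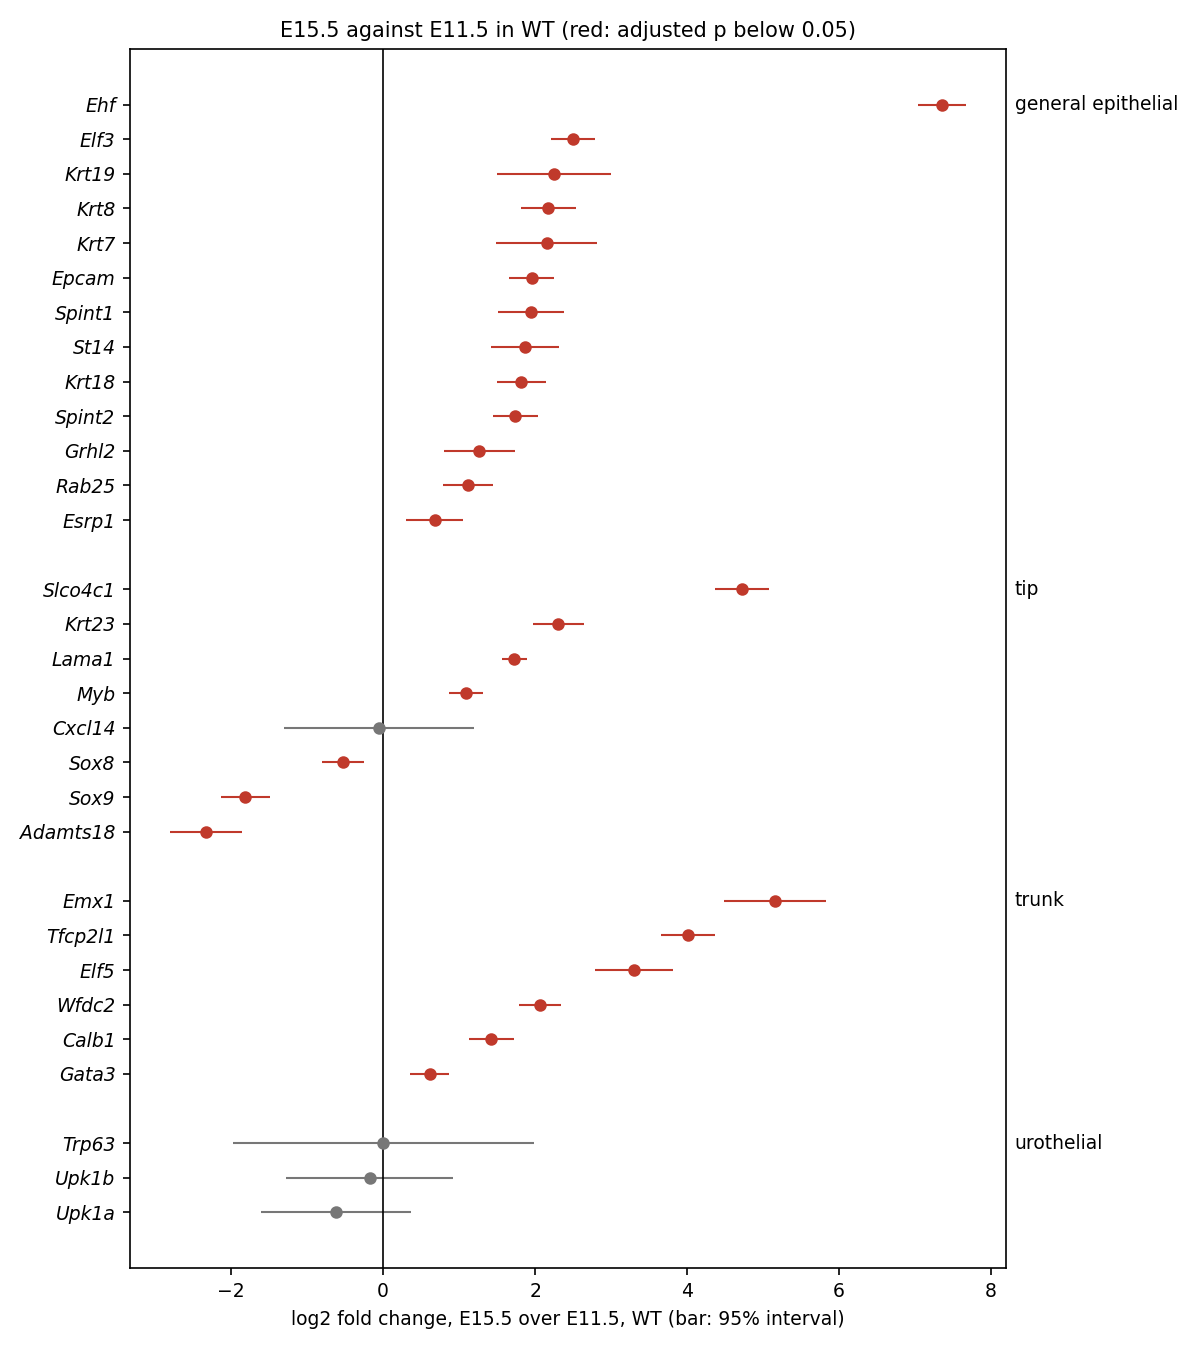
Log2 fold change of E15.5 over E11.5 in WT kidneys for 30 tested members, grouped by list, with 95% intervals; red marks an adjusted p below 0.05. All 13 epithelial and 6 trunk genes lie to the right of 0, the tip genes lie from 4.73 (Slco4c1) to -2.33 (Adamts18), and Upk2 (not tested) and Upk3a (0 counts at E11.5) are not drawn.

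The effect of losing 1 Six2 copy was also compared between the ages in a single fit, though it is not known whether both ages carried the same allele. No member was called by edgeR, against 0.00576% of all genes, and none by DESeq2, while 7 of 31 had an unadjusted p below 0.05, beside 3.42% of all genes. The largest difference was in Trp63, at 3.47 ± 1.2 on the log2 scale (adjusted p = 1), a gene whose E11.5 WT mean was set by WT embryo 6.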

How the data were processed

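The deposited table holds raw counts of reads per gene symbol, made by the authors; the submitters' processing notes name STAR 2.4.0h1, featureCounts 1.4.6 and the mm10 build. The annotation, strand setting and handling of reads with several matches are not given in the sources used here. RNA was extracted with a QIAGEN RNeasy micro kit, per the labels' protocols. Repeat libraries of a specimen were summed, giving 24 specimens from 33 libraries.

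Counts were tested in edgeR 4.0.16 (R 4.3.3, limma 3.58.1) with TMM scaling, filterByExpr (minimum count 10, minimum total 15), the quasi-likelihood test and Benjamini-Hochberg adjustment over all genes tested. The E11.5 model held group, sex and batch, the E15.5 model group and sex, and a model of all 24 specimens gave the age comparison and the difference between the Het effects. DESeq2 1.42.0 was an alternative, and the E11.5 fits of 1 batch alone held group without sex. List levels are means of log2 CPM with a prior count of 1. The tests were tried on simulated data. The members and lists were chosen with earlier results of these data known. The E11.5 replicate numbers in the titles mark the batch, so batch is the replicate block.

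Libraries of a specimen present in both batches deviated with their own partner: at E15.5, 8 of 8 correlated best with it (0.181 to 0.597). Named genes are members, and non-members only from the fixed lists. The 95% intervals come from the edgeR fit and carry the spread between specimens, while the floors (3 counts) cover counting error only.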

Additional observations from a re-analysis of the deposited data

Results flagged for a closer look

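Of 155 sets of a member's values in a group of 4 to 6 specimens, 18 had a highest or lowest specimen far from the rest by Dixon's criterion, where chance gives about 1 in 20. Of these, 12 were the highest value of WT embryo 6 at E11.5: Krt7 (40.3 CPM), Krt19 (19.9), Epcam (79.7), Grhl2 (27.6), Esrp1 (45.1), St14 (32.4), Spint1 (31.7), Cxcl14 (67.4), Upk1a (8.56), Upk1b (8.90), Upk2 (0.192) and Trp63 (16.2). The other 6 were spread over 5 embryos. Krt7 was high in Het embryo 4 (11.5 CPM, the next 6.60), Elf5 in Het embryo 3 (0.869, the next 0.512) and Upk1b in KO embryo 4 (2.25, the next 1.37). In KO embryo 2 Grhl2 (8.62, the next 12.3) and Lama1 (129, the next 149) were low, and Esrp1 was low in Het embryo 1 (18.4, the next 24.7).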

How the results depend on the processing

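In KO against WT embryos, 8 members were called among 1144 genes. The count was 4 in batch 1 alone (405 genes; Krt23 and, not called with all embryos, Krt8, Krt18 and Spint1), 5 in batch 2 alone (202 genes), 5 without the replicate block (439 genes), 5 without libraries above 5% ribosomal counts (349 genes), and 1 and 2 with the epithelial and pan-bud covariates when WT embryo 6 was left out, which was chosen after seeing the data. Leaving out 1 embryo gave 4 (without KO embryo 5) to 13 (without WT embryo 6). Without the replicate block the calls of Gata3, Lama1 and Elf3 were lost. In KO against Het embryos 2 were called among 595 genes. The count was 8 in batch 1 alone (1033 genes) and 4 in batch 2 alone (70 genes), in fits without a sex term. All KO embryos of batch 1 were female and all its Het embryos male, so genotype cannot be told apart from sex there. With no filter the count was 5 (645 genes), with the title prefix as a block 5 (602 genes), and 2 to 3 when 1 embryo was left out. In Het against WT kidneys at E15.5 the count was 0 among 104 genes called. It was 1 in batch 1 alone (86 genes), 2 with DESeq2 (155 genes), 1 with no filter (143 genes) and 0 to 1 when 1 specimen was left out. For age it was 27, and 27 to 29. With 1 specimen left out, the age difference ran from -0.43 to 1.33 for Cxcl14 and from -0.68 to 1.91 for Trp63, the highest value of each being without WT embryo 6. The causes were not tested. Low counts limit Krt23 and Slco4c1 in KO embryos.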
